A study of Homo sapiens with 6 samples.

Results

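Cells divide the copying of nuclear DNA into RNA among 3 enzymes. RNA polymerase I makes the large ribosomal RNA precursor in the nucleolus, RNA polymerase II makes messenger RNA and most small nuclear RNA, and RNA polymerase III makes transfer RNA and other short RNAs. The enzymes are built on a common core, with a pair of catalytic subunits of their own, small subunits that all of them share, and outer subunits that do the work which separate general factors do for Pol II. Pol I is brought to ribosomal DNA by UBF and SL1, Pol III by TFIIIB, and growth signals act on both through RRN3 and the Pol III repressor MAF1.

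The genes described here encode these enzymes and their dedicated initiation factors. They were chosen by symbol: every gene whose symbol begins with POLR1, POLR2 or POLR3 and a letter, with UBTF, RRN3, TAF1A, TAF1B, TAF1C, TAF1D, BRF1, BRF2, BDP1 and MAF1. The rule found 38 genes among the 16953 of the authors' deposited table. They are 9 subunits and factors of Pol I, 2 subunits shared by Pol I and Pol III, 5 shared by all 3 enzymes, 9 genes of Pol II and 13 of Pol III. POLR2A, POLR2J4 and POLR3E were not analysed here, so the largest Pol II subunit has no value below.

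The series profiled H1048, a human small cell lung cancer line, as 3 samples treated with ISP-I (isovalerylspiramycin I, a macrolide) at 10 µM and 3 treated with the solvent DMSO, each for 48 h; all are wild type. The authors compared libraries D to F with libraries A to C, and no label ties a letter to a treatment. The table's name gives the order, and a positive log2 fold change is read from it as higher in libraries D to F. Whether these were the ISP-I samples is not stated in the sources used here. Values per library were not used for the same reason, so depth, levels of the genes and the spread between replicates were not analysed here; the only statement of error is the authors' adjusted p. POU2F3 (log2 fold change -1.71) and AVIL (-2.31), which mark the tuft cell-like subtype of this cancer, were lower in the authors' deposited table, and the neuroendocrine markers INSM1 (1.81) and SYP (2.51) higher; of 6 tested markers of fibroblasts, leukocytes and endothelium only COL1A1 (-0.57) was called.

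Most called polymerase transcripts differed by less than 2-fold, and the 7 that differed more were 4 outer subunits of Pol III, 1 subunit of SL1 and a pair of POLR2J copies. TAF1D, a subunit of SL1, was 2.81-fold higher in libraries D to F, and the Pol III subunits POLR3C, POLR3D and POLR3F were 2.41-, 2.31- and 2.06-fold higher. POLR3GL, another Pol III subunit, was 2.64-fold lower, and the Pol II copies POLR2J2 and POLR2J3 were 2.45- and 3.50-fold lower. The catalytic subunits with a value differed by less than 1.5-fold in either direction.

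With calls made at an adjusted p under 0.05 from the authors' deposited table, 17 of the 37 tested members were higher in D to F (45.9%, against 29.7% of the 15976 genes tested), and 6 were lower (16.2%, against 27.9%). The other 14 were not called. With a minimum of 0.5 in absolute log2 fold change 11 of the 37 were higher (against 23.3% of all tested genes) and 4 lower (against 21.7%). At an adjusted p under 0.01, 14 of the 37 were higher (against 25.5%) and 6 lower (against 24.2%). With the adjustment made over all 16953 genes, 17 of the 38 members were higher (against 27.8%) and 6 lower (against 26.1%). The smaller deposited table keeps genes at an unadjusted p under 0.05 with at least a 2-fold difference. It holds 4 of the 38 members as up (against 12.7% of all genes) and 3 as down (against 11.0%). Under that rule the members' share was below that of all genes in both directions, so their excess of higher calls was not seen. The members' median log2 fold change was 0.17, against 0.05 over all tested genes. No test of the members as a group was made, and these shares are descriptions. BDP1 had no adjusted p and is itself among 46 genes with the same fold change to 3 decimals, so this value carries no information on BDP1.

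The promoter windows of the members, 250 bases before to 50 after the start in RefSeq (GRCh38.p14), were available for 27 of the 38 genes. They often held the letters CCGGAAG, the core that ETS family factors recognise, on either strand. It occurred in 14 of the 27 windows (51.9%), against 10.3% of all 35116 windows in the reference and 16.0% of the windows of 12309 tested genes taken once each. Of the 13 windows of members called higher 9 held it, and of the 4 of members called lower 1 did. The shares among all genes called higher or lower were not computed, so whether the motif goes with the call was not tested. The first match of each of those 9 genes is shown in 29 bases, turned to read the motif forward, with CCGGAAG in capitals, because its share among members stood above that of other windows. In all 7 motifs were searched.
TAF1D, chr11:93741543-93741571, minus strand: tcgccttcttcCCGGAAGctaagttgtat
POLR3C, chr1:145824164-145824192, plus strand: aaagagcgtccCCGGAAGccgccgaaact
TAF1A, chr1:222589915-222589943, plus strand: tcgcctcgaccCCGGAAGtgacttctgga
POLR1C, chr6:43516866-43516894, plus strand: gatgtgggcctCCGGAAGgtagacgtcca
POLR2C, chr16:57462643-57462671, minus strand: caccgccaacaCCGGAAGtcagtcagcga
TAF1B, chr2:9843446-9843474, plus strand: cgcgtttccggCCGGAAGcttctccagcc
POLR2M, chr15:57706706-57706734, minus strand: tcgccattttcCCGGAAGaacggggtctt
POLR1B, chr2:112541899-112541927, plus strand: aggcctccagtCCGGAAGatgcgacgagg
POLR2D, chr2:127858124-127858152, plus strand: caccagcgccgCCGGAAGcagaagcgcgg

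The matches of TAF1D and POLR3C lay 65 and 25 bases before the start. Among members not called, POLR2F, POLR3A, RRN3 and TAF1C held the letters as well, and POLR2J2 was the member called lower that held them. A match describes the sequence only; binding was not measured.

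The NRF1 motif, searched as GCGC, an A, any base and GCGC again, which the factor NRF1 recognises, occurred in 7 of the 27 windows (25.9%), against 5.78% of all windows and 9.88% of those of tested genes. It stood in 3 of the 4 windows of members called lower and in 2 of the 13 of members called higher, POLR3K and TAF1B. The shares among all genes called higher or lower were not computed here either, and 4 windows are few. Whether this motif goes with the call was not tested. Of the 3 genes called lower, POLR2J2 also held the ETS letters, and its value is uncertain because of its near-identical copies. The matches of the 3 genes called lower are shown in 28 bases, with the motif in capitals.
POLR2B, chr4:56978798-56978825, plus strand: ctacaatttGCGCAGGCGCagatcctaa
POLR2E, chr19:1095367-1095394, minus strand: tcggattcgGCGCAGGCGCagtccgcgc
POLR2J2, chr7:102671737-102671764, plus strand: gaggatcttGCGCAGGCGCgagaaaacc

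The fourth member called lower with a window, POLR3GL, held neither motif. Its sequence before the start, as far as no annotated exon covers it, is shown in 107 bases because this gene moved against its partners in the enzyme; capitals mark CCAAT on either strand and the GC box GGGCGG.
POLR3GL, chr1:145964583-145964689, plus strand: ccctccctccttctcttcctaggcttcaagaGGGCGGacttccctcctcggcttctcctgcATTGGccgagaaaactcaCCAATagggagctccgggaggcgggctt

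The other motifs were near their background. GGGCGG was in 16 of 27 member windows (59.3%, against 65.2% of windows of tested genes) and CCAAT in 9 (33.3%, against 36.1%). The E-box CACGTG, which MYC and its partners recognise, was in 2 (7.41%, against 9.33%), namely those of POLR3A and POLR3C. TATAAA was in 1, that of POLR2M (3.70%, against 6.95%), and TGACGTCA, the cyclic AMP response element, in 1, that of BDP1 (3.70%, against 2.83%).

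**Figure D1:**
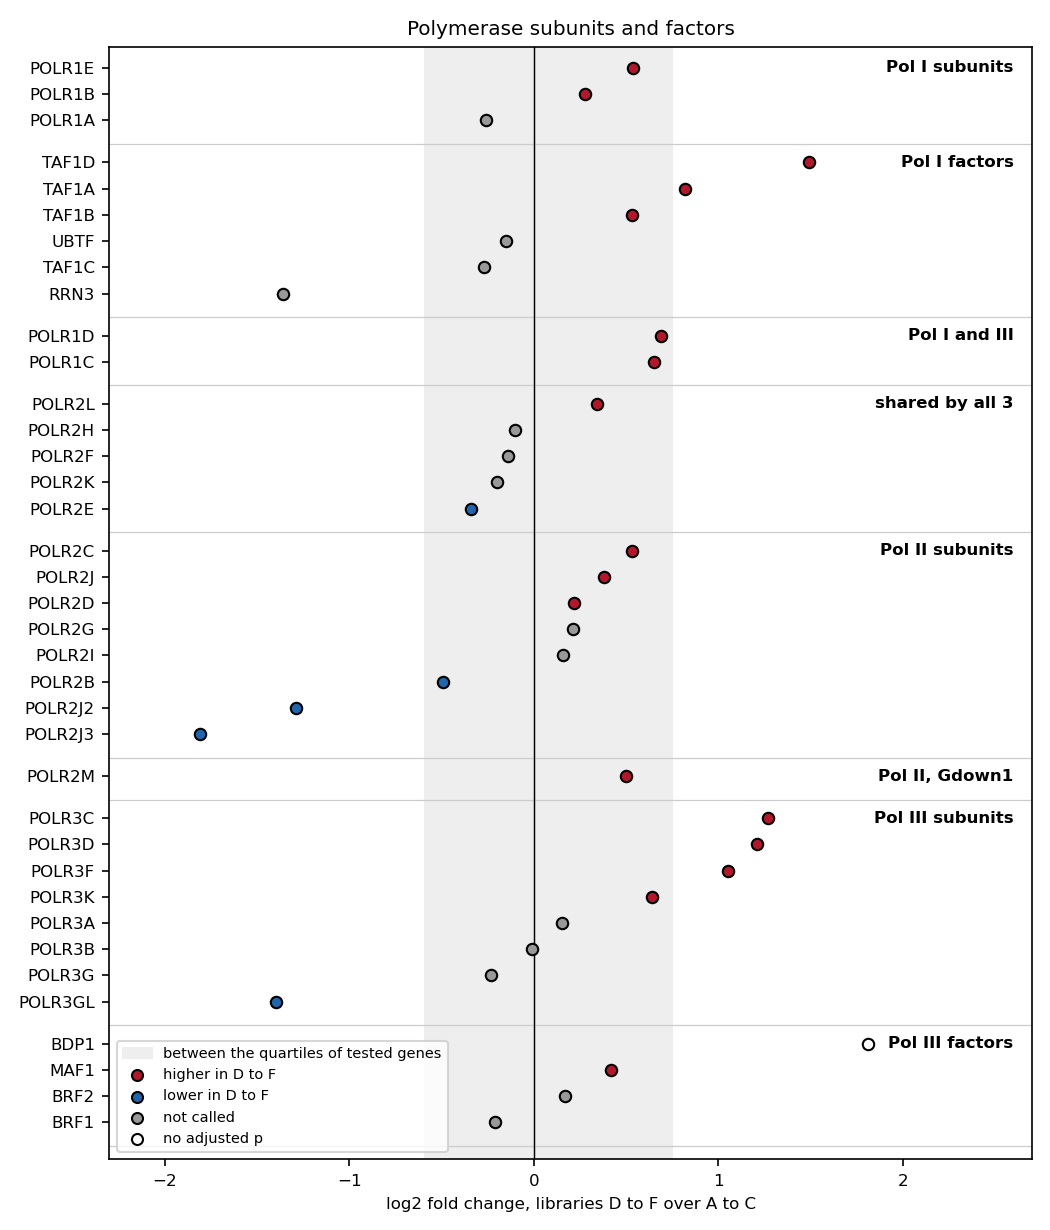
Each point is 1 gene, with its log2 fold change in libraries D to F over A to C on the horizontal axis; colour marks the call at an adjusted p under 0.05, and the grey band runs between the quartiles of all tested genes (-0.59 to 0.75). TAF1D (1.49), POLR3C (1.27), POLR3D (1.21), POLR3F (1.05) and TAF1A (0.82) are called points above the band, and POLR2J2 (-1.29), POLR3GL (-1.40) and POLR2J3 (-1.81) called points below it.

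Among Pol I genes, 5 of 9 were higher (55.6%, against 29.7% of all tested genes) and 0 lower (against 27.9%) in the authors' deposited table. The smallest unadjusted p among Pol I genes with a negative value was 0.035, that of TAF1C. The catalytic subunit POLR1B was slightly higher (log2 fold change 0.28, adjusted p = 0.0116), while POLR1A, the largest subunit, was at -0.26 (adjusted p = 0.119). POLR1E, which with CD3EAP forms a module that resembles the Pol II factor TFIIF, was higher (0.54, adjusted p = 4.91e-06). Pol I subunits that the table lists under other symbols gave 1 more call. TWISTNB, the stalk subunit now named POLR1F, was 2.35-fold higher (adjusted p = 9.77e-26), and CD3EAP, now POLR1G, was at 0.31 (adjusted p = 0.326). ZNRD1 was not analysed here.

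SL1 places TBP on the ribosomal DNA promoter through TAF1A to TAF1D. TAF1D had the smallest adjusted p of all members (chromosome 11, 93729948 to 93784391, minus strand; log2 fold change 1.49, adjusted p = 2.31e-38, from the authors' deposited table). TAF1A (0.82, adjusted p = 0.000672) and TAF1B (0.53, adjusted p = 0.00301) were also higher, and TAF1C was at -0.27 (adjusted p = 0.0595), so 3 of the 4 TAF subunits were called. TBP, named here after its value was seen, was higher as well (0.52, adjusted p = 5.16e-05). UBTF, which encodes UBF and opens ribosomal DNA for Pol I, was at -0.15 (adjusted p = 0.14). RRN3, the factor that makes Pol I competent to start, had the lowest value of the Pol I genes (-1.36) but an adjusted p of 0.395, so no change was detectable. Of its 100-base words 18.2% are found in transcripts of other genes, its pseudogenes RRN3P1 and RRN3P2 among them. The exons of TAF1D hold annotated snoRNA genes such as SNORA8 and SNORA25, and 17.3% of its exon bases overlap other annotated genes; their part in its value was not tested.

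POLR1C and POLR1D, the alpha-like pair on which both Pol I and Pol III assemble, were both higher in the authors' deposited table, at 0.65 (adjusted p = 1.99e-07) and 0.69 (adjusted p = 4.55e-12). The pair in Pol II did likewise, with POLR2C at 0.53 (adjusted p = 1.49e-06) and POLR2J at 0.38 (adjusted p = 0.0162). These 4 genes were therefore all called higher, each by less than 2-fold. The POLR2J copies POLR2J2 (-1.29) and POLR2J3 (-1.81), which were not assigned a place, were lower. Of the 5 subunits shared by the 3 enzymes, POLR2L was higher (0.34, adjusted p = 0.00611), POLR2E lower (-0.34, adjusted p = 0.000284), and POLR2F (-0.14), POLR2H (-0.10) and POLR2K (-0.20) were not called.

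Pol II genes went both ways. POLR2B, the catalytic partner of POLR2A, was lower in libraries D to F (log2 fold change -0.49, adjusted p = 1.73e-08, from the authors' deposited table), and the stalk subunit POLR2D was just called higher (0.22, adjusted p = 0.0441). POLR2G, the other stalk subunit, was at 0.21 (adjusted p = 0.111) and the zinc-ribbon subunit POLR2I at 0.16 (adjusted p = 0.267). POLR2M, which encodes Gdown1, a protein that binds Pol II and keeps general factors off it, was higher (0.50, adjusted p = 0.000826). In all 4 of 9 Pol II genes were higher (44.4%, against 29.7% of all tested genes) and 3 lower (33.3%, against 27.9%). Of the lower ones 2 were the copies POLR2J2 (-1.29, adjusted p = 0.000604) and POLR2J3 (-1.81, adjusted p = 3.84e-10).

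The POLR2J copies lie on chromosome 7 within a block of duplicated sequence, and their values are uncertain. Of the 100-base words of POLR2J2 transcripts 93.7% occur in transcripts of another gene, 79.7% in those of POLR2J3, and for POLR2J3 and POLR2J the shares are 35.6% and 25.6%. The symbol POLR2J3 names 2 genes in GENCODE release 29. Without these copies, 1 Pol II gene was lower. POLR2M shares 17.2% of its words with the readthrough gene GCOM1, which was itself lower (-1.51, adjusted p = 0.000336).

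The catalytic subunits POLR3A (log2 fold change 0.15, adjusted p = 0.312) and POLR3B (-0.01, adjusted p = 0.944) of Pol III were not called in the authors' deposited table. Several of its outer subunits were. POLR3C (chromosome 1, 145824088 to 145842505, plus strand; 1.27, adjusted p = 2.50e-36) and POLR3F (chromosome 20, 18467127 to 18484643, plus strand; 1.05, adjusted p = 2.68e-12) were higher, and these resemble the Pol II factor TFIIE and help open the promoter. POLR3D (chromosome 8, 22245104 to 22254600, plus strand; 1.21, adjusted p = 3.38e-28), which pairs with POLR3E in a TFIIF-like module, was higher too. POLR3K, the zinc-ribbon subunit needed for termination and restart, was at 0.64 (adjusted p = 0.000952).

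The partner that joins POLR3C and POLR3F in their ternary complex comes in alternative forms, POLR3G, typical of stem and tumour cells, and POLR3GL, the form of most differentiated tissues. POLR3GL (chromosome 1, 145964702 to 145978848, plus strand) was lower in libraries D to F, at -1.40 (adjusted p = 1.59e-07). POLR3G was at -0.23 (adjusted p = 0.373). The difference between the paralogs was not tested, since the table gives no standard errors. POLR3GL therefore moved opposite to POLR3C and POLR3F, its partners in the complex. Of the exon bases of POLR3GL 21.2% overlap AC243547.3, a gene on the same strand at -1.03 without an adjusted p. The part of this overlap in the value of POLR3GL was not tested.

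CRCP, a Pol III stalk subunit outside the symbol rule, was 2.62-fold higher (adjusted p = 1.52e-30, from the authors' deposited table). Whether the authors' counting used strand is unknown, so reads from exons that overlap a gene on the opposite strand cannot be assigned, and their part in a value was not tested. This holds for POLR2I, of whose exon bases 79.6% overlap genes on the opposite strand. It shares 61.9% with AD001527.2, which has no value here, and 32.9% with TBCB (-0.94, adjusted p = 9.12e-10). BRF2 shares 59.0% with ADGRA2 (-0.90, adjusted p = 2.75e-09). It holds for called members as well. POLR2L shares 22.5% with CD151 (-0.14, adjusted p = 0.191) and POLR2B 7.85% with NOA1 (0.71, adjusted p = 4.47e-10). In all, 18.2% of exon bases of POLR1C and 12.4% of those of POLR2B overlap genes on the opposite strand.

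Of the factors that load or restrain Pol III, MAF1, the repressor that binds the enzyme when nutrients or growth signals fail, was higher (0.42, adjusted p = 8.82e-05). BRF1, the TFIIIB subunit for transfer RNA genes, was at -0.21 (adjusted p = 0.0585), and BRF2, its counterpart for small nuclear RNA genes, at 0.17 (adjusted p = 0.4). Counting subunits and factors, 5 of 12 Pol III genes with an adjusted p were higher (41.7%, against 29.7% of all tested genes). Another 2 were lower (16.7%, against 27.9%).

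Set side by side, the median log2 fold change was 0.28 for Pol I genes, 0.21 for Pol II genes and 0.16 for Pol III genes, with ranges of -1.36 to 1.49, -1.81 to 0.53 and -1.40 to 1.27. The ranges overlap. Genes of one enzyme are not replicates of it, so no test between the enzymes was made.

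**Figure D2:**
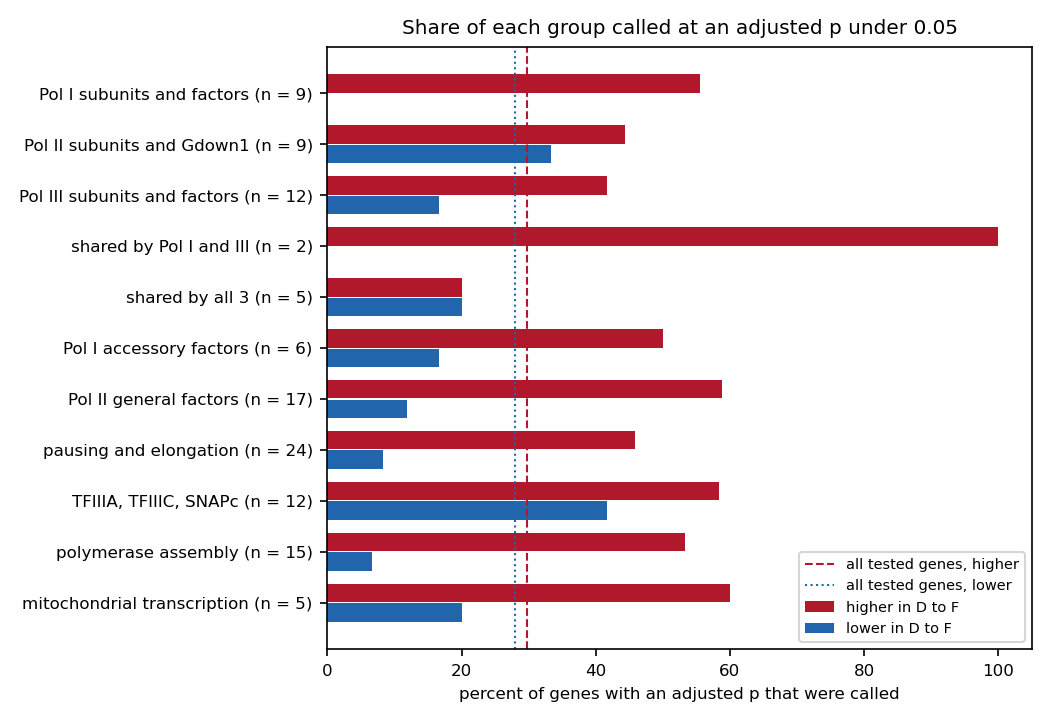
Bars give the percent of genes with an adjusted p in each group that were called higher (red) or lower (blue) in libraries D to F; n is the number of such genes. The dashed line is the share of all tested genes called higher (29.7%) and the dotted line the share called lower (27.9%); Pol I and the pair shared with Pol III have no blue bar.

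Other genes of the transcription machinery, mitochondrial ones included, taken as whole lists, also had more genes called higher than lower. Over all 79 genes of 6 lists 42 were higher (53.2%, against 29.7% of all tested genes) and 12 lower (15.2%, against 27.9%), and no test of the lists was made. General initiation factors of Pol II were higher in 10 of 17 (58.8%) and lower in 2 (11.8%), with a median log2 fold change of 0.52. The TFIIH subunit GTF2H1 (1.22, adjusted p = 4.27e-33), the kinase assembly factor MNAT1 (1.10) and GTF2H2 (0.98) had the smallest p-values among those higher, while GTF2H5 (-0.87) and the helicase ERCC3 (-0.26), also of TFIIH, were lower in the authors' deposited table. Within TFIIH the subunits thus went both ways.

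Pausing and elongation factors were higher in 11 of 24 (45.8%, against 29.7% of all tested genes) and lower in 2 (8.33%, against 27.9%). Their median was 0.26. ELL2, a subunit of the super elongation complex, was 3.38-fold higher (adjusted p = 4.54e-35), and MEPCE (0.98), which caps and holds the inhibitory RNA of P-TEFb, and the P-TEFb cyclin CCNT1 (0.85) were higher too. NELFB (-0.78), of the pausing factor NELF, and AFF1 (-0.84) were lower in the authors' deposited table.

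The promoter factors that Pol III and snRNA genes use, TFIIIA, TFIIIC and SNAPc, were all called (median 0.51). Of 12 genes 7 were higher (58.3%, against 29.7% of all tested genes) and 5 lower (41.7%, against 27.9%). SNAPC1 (4.08-fold, adjusted p = 2.07e-32) and SNAPC2 (1.10) of SNAPc and GTF3A (0.96), which encodes TFIIIA, were higher. The TFIIIC subunits GTF3C1 (-0.66), GTF3C2 (-0.73) and GTF3C6 (-0.73) were lower in the authors' deposited table. Both complexes went both ways: GTF3C4 (0.53) and GTF3C5 (0.50) of TFIIIC were higher and SNAPC3 (-0.35) of SNAPc was lower, named here after their values were seen.

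The list drawn up for assembly and import of the enzymes also holds RPRD1A, RPRD1B and PPP1R2. Of its 15 genes 8 were higher (53.3%, against 29.7% of all tested genes) and 1 lower (6.67%, against 27.9%), with a median of 0.27. GPN2, a GTPase of the assembly pathway, was 2.99-fold higher (adjusted p = 1.59e-60), with RPAP3 at 1.11 and the prefoldin PFDN2 at 0.90. The prefoldin-like URI1 (-0.37) was lower in the authors' deposited table. Accessory factors of Pol I were higher in 3 of 6 (50%) and lower in 1 (16.7%), with a median of 0.63. The higher ones were NOLC1 (1.04), the termination factor TTF1 (1.03) and CAVIN1 (1.05). BAZ2A (-0.62), a subunit of the complex that silences ribosomal DNA, was lower.

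**Figure D3:**
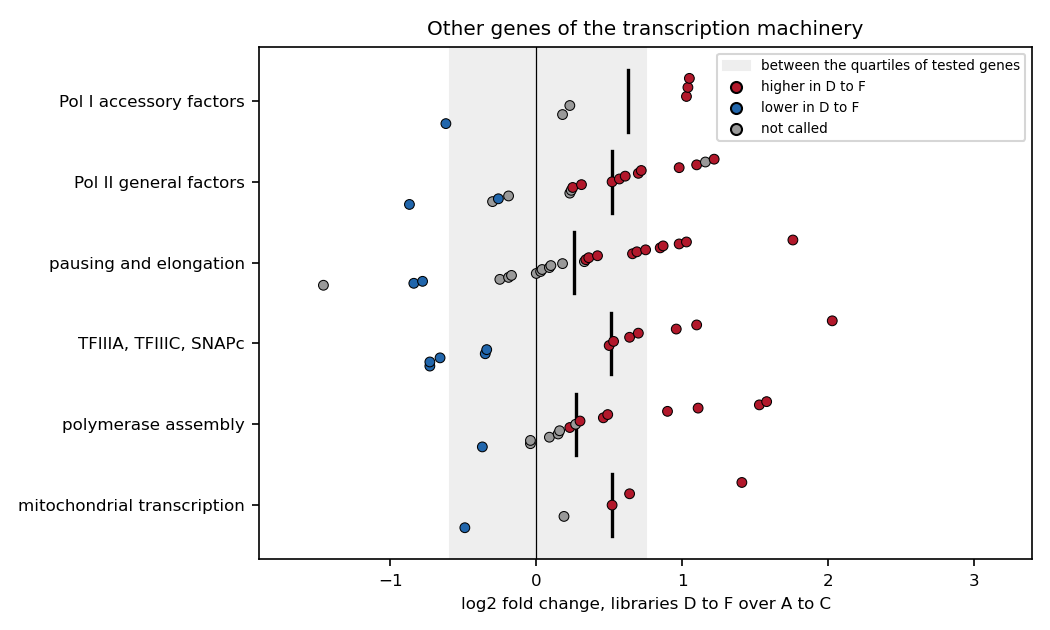
Each point is 1 gene of a list, with its log2 fold change in libraries D to F over A to C on the horizontal axis; colour marks the call, the short black lines are list medians, and the grey band runs between the quartiles of all tested genes. The list medians lie between 0.26 and 0.63, and the highest points are SNAPC1 (2.03) and ELL2 (1.76).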

How the data were processed

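Per the labels' protocols, RNA was taken with TRIzol, and libraries were made with a NEBNext Ultra kit. Trimmomatic, STAR, HTSeq and DESeq2, with build hg38, are listed per the submitters' processing notes. Their versions, annotation, strand setting and shrinkage were not given in the sources used here. Per the file headers, the authors' table holds for each gene a log2 fold change with its p-value, raw and adjusted. Replicates are biological per the design text. The 36 columns of values per library were not used, since no label ties them to samples; the planned edgeR test on counts was therefore not run. An adjusted p of exactly 1 (977 genes) was read as none, because the others equal a Benjamini-Hochberg adjustment over the remaining 15976.

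Members and lists were chosen with earlier results of these data known; enzyme places were assigned after values were seen. Members are named, except where a result is not reported here; of each other list, up to 3 genes called higher and 3 called lower are, by smallest p. The adjustment and calls were tested on simulated data. GENCODE 29 (GRCh38) gave positions, exon overlaps and shared 100-base words, on both strands; RefSeq gave promoter windows. Motifs were searched on both strands and may overlap. Scripts ran in Python 3.11.15 with numpy 2.4.6, pandas 2.3.3 and matplotlib 3.10.9.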

Additional observations from a re-analysis of the deposited data

How the results depend on the processing

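Every alternative run used the authors' same log2 fold changes, and only centring on the median of all genes (0.06) moved them. That no direction of a named gene changed was therefore largely fixed in advance. Centring also kept the authors' adjusted p, so that it changed no call of a named gene says little. Adjusting over every gene of the table changed no call of a member, of a subunit under another symbol or of a gene picked by smallest p. Of the other genes of the pathway 41 were then higher, against 42. At an adjusted p under 0.01, POLR1B, POLR2D, POLR2J and ERCC3 were no longer called, leaving 2 Pol II genes higher. With a minimum of 0.5 in absolute log2 fold change, 8 members lost their call: 11 members were higher, 1 of them of Pol II, and of the subunits shared by all enzymes 0 were higher and 0 lower; 7 other genes of the pathway were lower, against 12. Under the rule of the smaller table, at least a 2-fold difference at an unadjusted p under 0.05, 4 members were higher and 3 lower: 1 higher of Pol I, 0 higher and 0 lower of the subunits shared by all enzymes, 0 higher of the pair shared by Pol I and III, 0 higher of Pol II, 3 higher and 1 lower of Pol III, and 13 higher and 0 lower of the other genes of the pathway. Without the POLR2J copies 1 Pol II gene was lower, and likewise 1 without the 5 members that share over 20% of their words with other genes, a choice made after seeing the data. The settings that lowered these counts are stricter or leave genes out by construction. The shares of all genes called under each rule are given with the counts of members above. Leaving out replicates, DESeq2 on counts and the filter on low counts were not run. No paired analysis was possible because the columns per library carry no replicate number of the labels. Depth was not analysed here, nor whether low counts limit RRN3 or BDP1.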

Other observations

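Mitochondria carry a polymerase of their own, a single chain unrelated to the nuclear enzymes. Its gene POLRMT was lower in libraries D to F (log2 fold change -0.49, adjusted p = 9.13e-06, from the authors' deposited table). The initiation factor TFB2M (2.65-fold, adjusted p = 8.71e-28), the packaging factor TFAM (0.52) and the elongation factor TEFM (0.64) were higher. In all 3 of 5 tested genes were higher (60%, against 29.7% of all tested genes) and 1 lower (20%, against 27.9%).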
